A study of Arabidopsis thaliana with 10 samples.

Results

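The data described here are the homozygous and heterozygous plants of an Arabidopsis thaliana line that the labels name after AtCesA6, a cellulose synthase gene. The comparison used every array labelled with that line, 2 homozygous and 2 heterozygous, of 10 arrays in all. The other 6 arrays, 3 homozygous and 3 heterozygous, came from an AtCesA4 line with the allele irx5-2. Every group was in the Col-0 background, and RNA came from rosettes of untreated 4-week-old plants kept at 50% humidity and 22 °C in a room chamber. The labels also describe the CesA6 line as irx6-1, whereas the reference annotation lists IRX6 as a name of COBL4, another cell wall gene, so the mutated gene is not settled by the labels. No probe set is named for CESA6, CESA4 or COBL4 in the annotation used here, so transcripts could not be used to check the genotypes. The heterozygous plants, which carry 1 mutant copy by their label, served as the comparison because wild-type plants were not analysed here. The labels do not say whether the 2 arrays of a group came from separate plants, pools or labellings of 1 RNA sample, so p-values measure only the spread between arrays, which may be technical.

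CESA6 is a subunit of the plasma membrane complex that makes the cellulose of growing, primary walls, and it is partly redundant with related subunits. CESA4 belongs to the complex of thickened, secondary walls such as those of xylem vessels. In Arabidopsis, plants with defects in cellulose synthesis are known for altered growth, and some are known for activated stress and defence hormone responses. Wall-sensing receptor kinases, wall-loosening proteins and hormone pathways are the routes through which wall defects are usually studied.

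Expression was measured on Affymetrix ATH1 arrays, on which a probe set is a group of short probes for 1 or more transcripts. The values are MAS5 signals, a linear measure of brightness, and arrays had been scaled to a common 2% trimmed mean of 100.01. Replicate arrays correlated at r = 0.936 in homozygous and 0.946 in heterozygous CesA6 plants, and homozygous with heterozygous arrays at 0.907 to 0.933, over the log2 values of all probe sets. The median absolute difference between replicates was 0.35 log2 units in homozygous and 0.32 in heterozygous plants, and 18.2% and 15.9% of probe sets differed more than 2-fold between them. The first principal component, with 23.6% of the variance, placed homozygous CesA6 arrays at -38.4 and -58.5 and heterozygous ones at 26.8 and 29.1. The 3′ to 5′ signal ratios of control probe sets, a sign of RNA quality, overlapped between homozygous and heterozygous arrays for actin and GAPDH. They were 3.62 and 3.10 against 3.31 and 2.75 for actin and 1.02 and 1.13 against 1.04 and 0.75 for GAPDH. For ubiquitin they were 1.25 and 1.49 against 1.15 and 1.25, so the homozygous values lay at or above the heterozygous ones.

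The question of the comparison was which transcripts differ between homozygous and heterozygous rosettes of the CesA6 line. In homozygous plants 5 of the 12 measured genes for abscisic acid, drought and cold responses, 2 SWEET sugar transporters, 3 transporters of the NPF family and the methyltransferase gene BSMT1 were higher. The defensin gene PDF1.2, the wax regulator DEWAX, 2 of 5 genes of pectin modification and 2 beta-tubulins were lower. In limma's test (threshold 0.05 after Benjamini-Hochberg adjustment over 22746 probe sets) 1259 probe sets passed, 5.54% of those tested. Of these, 562 (2.47%) were higher and 697 (3.06%) lower in homozygous plants. The groups did not overlap for any of the called probe sets, but this was also so for 46.4% of all probe sets. A change of at least 2-fold was seen for 358 of the higher and 491 of the lower calls, of at least 4-fold for 106 and 129, and of at least 8-fold for 28 and 29. The median log2 change of the calls was 1.17 for higher and -1.23 for lower ones, while the median over all probe sets was -0.03. The balance of directions depended on the scaling, since 44.6% of calls were higher as deposited but 56% when each array was centred on its median (672 higher, 527 lower). The number of calls also rested on single arrays, with 683 without homozygous replicate 2, 730 without heterozygous replicate 1 and 733 without heterozygous replicate 2.

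**Figure D1:**
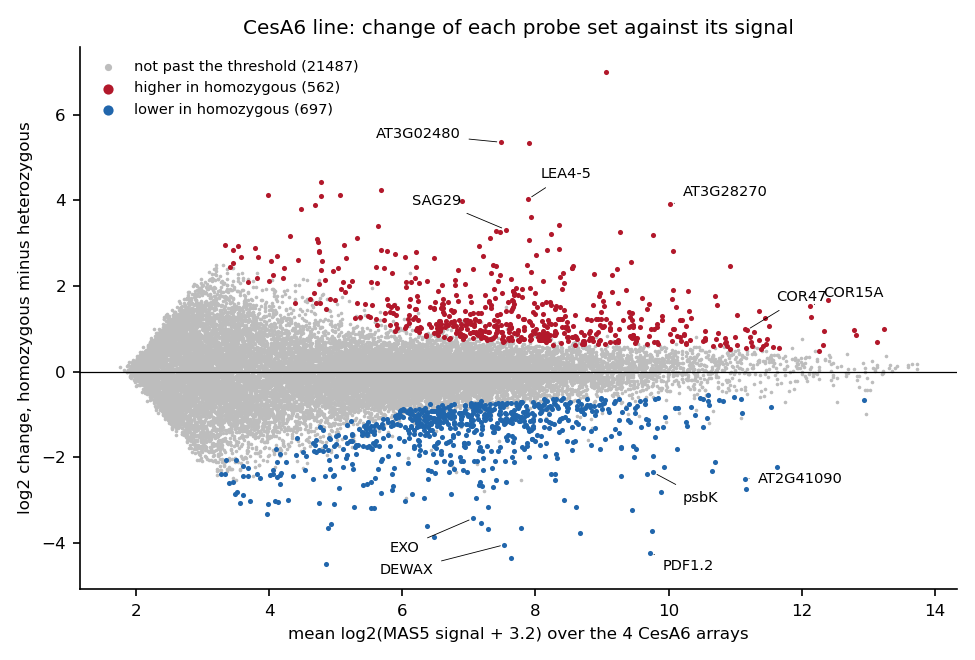
Each point is a probe set, with its mean log2 signal over the 4 CesA6 arrays on the x axis and its log2 change, homozygous minus heterozygous, on the y axis. Called probe sets (562 higher in red, 697 lower in blue) lie mostly at middle and high signals, and dim probe sets with equally large changes were mostly not called.

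Calls were concentrated among bright probe sets. When probe sets were ranked by mean signal and cut into 4 equal bins, 0.0528% of the dimmest bin was called, 2.15% and 6.05% of the next bins and 13.9% of the brightest. A further 2361 probe sets differed at least 2-fold without passing. Beside the threshold, the last probe set inside had a log2 change of -0.64 (adjusted p = 0.0498) and the first outside, AT5G45840, one of -1.95 (adjusted p = 0.0501). Only part of the calls can be named, because the annotation used here gave 1 gene to 13513 probe sets, several to 503 and none to 8730. Among the 13350 named genes, each represented by its brightest probe set, 561 passed (4.2%), 254 of them higher (1.9%) and 307 lower (2.3%). On each of the 5 nuclear chromosomes 1.57% to 2.39% of the named genes were higher and 2.02% to 2.45% lower.

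The probe set with the largest rise is unnamed, with signals of 5455 and 6756 in homozygous plants, against 40.6 and 47.7 in heterozygous plants. Its log2 change was 7.01 ± 0.59 (SE, adjusted p = 0.000642). The named gene with the largest rise was AT3G02480, at 1169 and 1115 in homozygous plants, against 22.4 and 27.2 in heterozygous plants, a log2 change of 5.36 ± 0.20 (adjusted p = 3.93e-17). In both cases the lower homozygous array lay far above the higher heterozygous one. AT3G17520 and the calmodulin-like gene CML39 (AT1G76640) had low signals in heterozygous plants. AT3G17520 had 128 and 122 in homozygous plants, against 2.41 and 3.06 in heterozygous plants, below the pseudocount of 3.2 that was added before the log, so its log2 change of 4.44 ± 0.43 is damped. CML39 had 164 and 114 in homozygous plants, against 5.6 and 4.15 in heterozygous plants, a log2 change of 4.12 ± 0.55. It was the only gene of 16 measured on the calmodulin, calcium and touch list to pass (6.25%, near the 5.54% of all probe sets). That list was matched by name pattern, so calcium-binding genes without a matching name are not counted in it. Among the genes listed by locus alone, AT3G28270 had 4563 and 3565 in homozygous plants, against 273 and 258 in heterozygous plants, a log2 change of 3.91 ± 0.20. AT1G62510 and AT2G37870 stood at 3.61 ± 0.27 and 3.12 ± 0.28.

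Genes known for induction by drought, cold and abscisic acid, the hormone of water deficit, were among the higher transcripts. On the list for these responses, 5 of the 12 measured genes were higher, none was lower, and the median log2 change was 1.07, against 2.47% of all probe sets higher and a median of -0.03. The late embryogenesis abundant gene LEA4-5, whose product protects drying cells, had 873 and 1048 in homozygous plants, against 69.9 and 44 in heterozygous plants, a log2 change of 4.03 ± 0.23 (adjusted p = 2.42e-13). LTI30, a dehydrin gene, had 1720 and 2108 in homozygous plants, against 584 and 596 in heterozygous plants, a log2 change of 1.68 ± 0.18. COR15A encodes a cold-regulated protein of the chloroplast stroma. Its signals were 6513 and 8973 in homozygous plants, against 2286 and 3009 in heterozygous plants, a log2 change of 1.54 ± 0.17. COR15B, its close relative, had 1604 and 1992 in homozygous plants, against 612 and 970 in heterozygous plants, a log2 change of 1.21 ± 0.20. The dehydrin COR47 had 3096 and 3354 in homozygous plants, against 1600 and 1698 in heterozygous plants, a log2 change of 0.97 ± 0.15. In all 5 genes each homozygous array exceeded each heterozygous one by more than the arrays of a group differed. Without limma's trend and robust options 3 of the 12 listed genes were called, and COR15B and COR47 lost their calls. Of the 7 genes that name patterns put on the late embryogenesis abundant list, LEA4-5 alone passed. Genes of this family without a matching name are not on that list, so the count does not cover the whole family. AtLEA4-1, with 15.4 and 19.5 in homozygous plants, against 1.21 and 2.21 in heterozygous plants, stood at 2.07 and did not pass.

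Other genes with a known link to stress and water deficit were higher as well, of which all but PUB19 and ALDH7B4 were picked after their values were seen. PUB19, a U-box ubiquitin ligase that dampens drought and abscisic acid responses, had 417 and 713 in homozygous plants, against 46.3 and 64 in heterozygous plants, a log2 change of 3.25 ± 0.26. OSM34, an osmotin-like protein gene, had 202 and 259 in homozygous plants, against 75.6 and 32.2 in heterozygous plants, a log2 change of 2.14 ± 0.33. HIS1-3, a drought-inducible linker histone, had 292 and 314 in homozygous plants, against 83 and 95.8 in heterozygous plants, a log2 change of 1.73 ± 0.28. Their groups did not overlap, as in every called probe set and in 46.4% of all probe sets. XERICO, a RING-type protein that promotes abscisic acid accumulation, rose by 1.29 ± 0.20 and the drought-induced gene DI21 by 1.50 ± 0.24 on the log2 scale. ALDH7B4, an aldehyde dehydrogenase that detoxifies stress-generated aldehydes, had 2300 and 1851 in homozygous plants, against 803 and 753 in heterozygous plants, a log2 change of 1.40 ± 0.19. The AP2-type transcription factor gene TINY2 rose by 1.69 ± 0.33, a call that was lost without homozygous replicate 2, at 1.36.

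**Figure D2:**
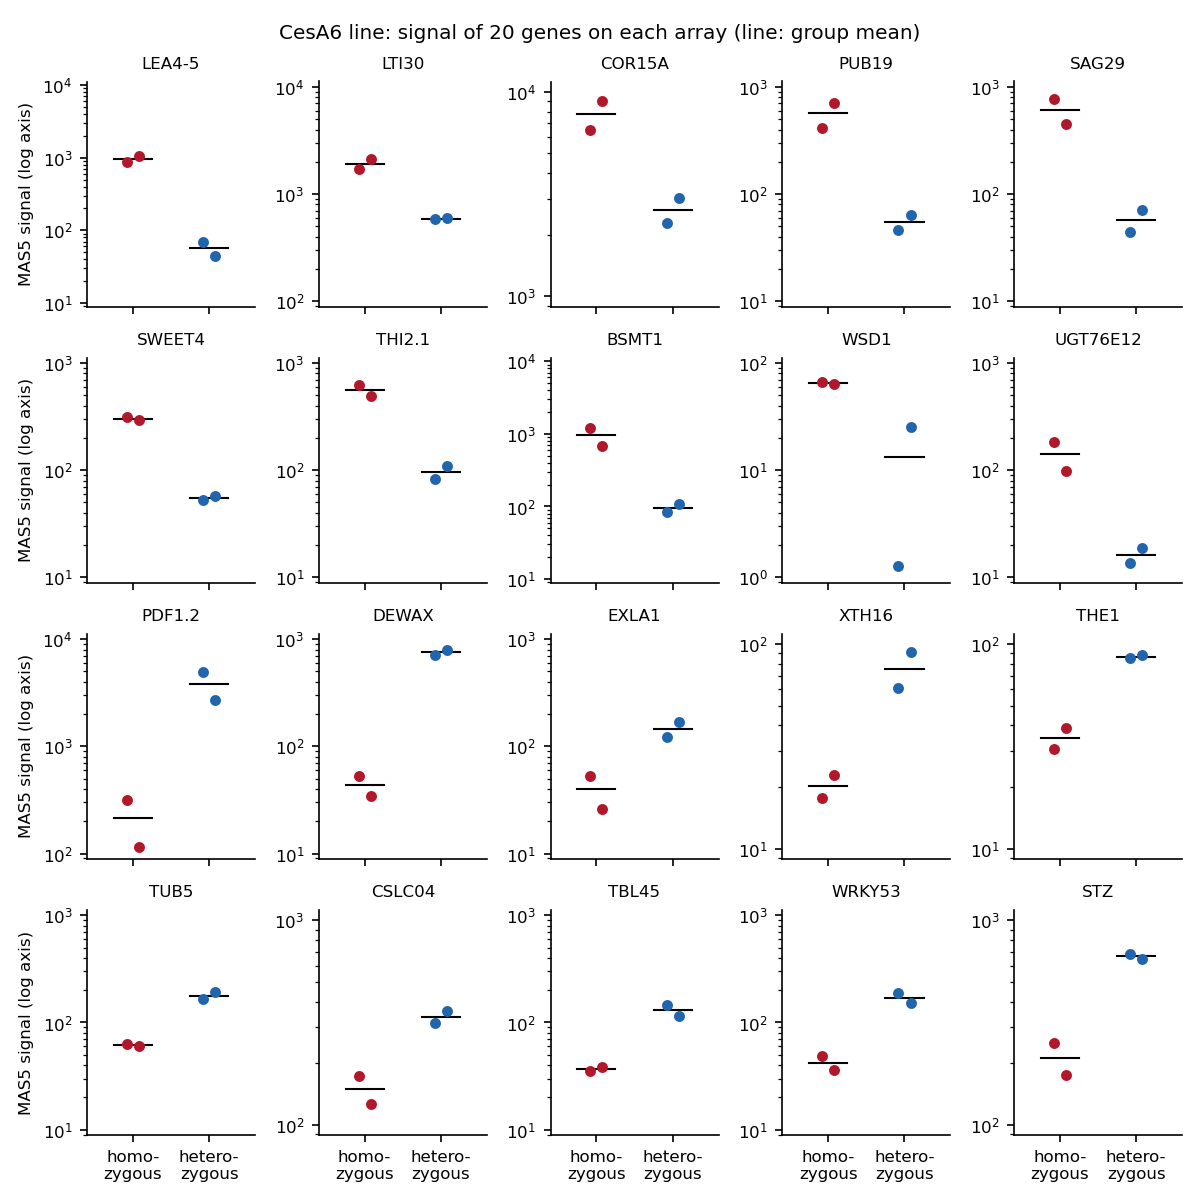
MAS5 signals on log axes for 20 genes described in the text, with homozygous arrays (red) left of heterozygous arrays (blue) and lines at the group means. The first 10 panels show genes higher and the last 10 genes lower in homozygous plants. In no panel do the groups overlap, as in every called probe set and in 46.4% of all probe sets.

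Sugar and nitrogen genes moved only in part. Of 23 genes on the sugar and starch list 3 were higher and none lower (13% called, against 5.54% of all probe sets), with a median of 0.03. The name pattern also let in TPP2, a tripeptidyl peptidase gene. SAG29, a SWEET-family sugar transporter known from ageing leaves, had 768 and 452 in homozygous plants, against 44.3 and 71.1 in heterozygous plants, a log2 change of 3.32 ± 0.33 (adjusted p = 9.51e-07). SWEET4, another member of the family, had 314 and 292 in homozygous plants, against 53.2 and 57.1 in heterozygous plants, a log2 change of 2.39 ± 0.30. APL4, a large subunit of the enzyme that begins starch synthesis, had 147 and 134 in homozygous plants, against 36.9 and 59.8 in heterozygous plants, a log2 change of 1.52 ± 0.33. The last call was lost without heterozygous replicate 1, at 1.19. SAG29 was also the only one of 13 genes on the senescence and autophagy list to pass (7.69%, against 5.54% of all probe sets). The amino acid and nitrogen list had 12 measured genes, all of them transporters and nearly all of the NPF family. Of these, 3 NPF genes were higher and none was lower (25% called, against 5.54% of all probe sets). NPF3.1 (AT1G68570) had 867 and 899 in homozygous plants, against 305 and 299 in heterozygous plants, a log2 change of 1.54 ± 0.19. NPF6.4 (AT3G21670) had 1118 and 1137 in homozygous plants, against 441 and 422 in heterozygous plants, a log2 change of 1.38 ± 0.18. Replicates of these genes were close to each other. GTR1, which moves glucosinolates, changed least, by 0.91 ± 0.18. Outside the lists, the methionine gamma-lyase gene MGL, of methionine breakdown, had 604 and 547 in homozygous plants, against 126 and 133 in heterozygous plants, a log2 change of 2.12 ± 0.19. ARD4, an acireductone dioxygenase of methionine salvage, rose by 1.21 ± 0.17. AKINBETA1, a regulatory subunit of the energy-sensing SnRK1 kinase, and TMT1, a vacuolar sugar importer, were lower at -1.25 ± 0.31 and -1.21 ± 0.25. The AKINBETA1 call was lost without homozygous replicate 1, heterozygous replicate 1 or heterozygous replicate 2 (-1.37 to -1.13), and the TMT1 call without homozygous replicate 2 or heterozygous replicate 1 (-1.05 to -0.89).

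Genes of jasmonate, a hormone of wounding and defence, moved in both directions. Of 12 measured on that list 1 was higher and 2 were lower (25% called, against 5.54% of all probe sets), with a median of 0.07. The name pattern also let in PDF1A and PDF1B, which are peptide deformylase genes. The thionin gene THI2.1 had 630 and 491 in homozygous plants, against 83.1 and 110 in heterozygous plants, a log2 change of 2.50 ± 0.29 (adjusted p = 7.92e-06). PDF1.2, a defensin gene and standard marker of jasmonate and ethylene acting together, went the other way and was the named gene with the largest fall. It had 319 and 114 in homozygous plants, against 4986 and 2700 in heterozygous plants, a log2 change of -4.24 ± 0.61 (adjusted p = 0.00948). PDF1.2b, a near-identical copy, had 454 and 120 in homozygous plants, against 4296 and 2318 in heterozygous plants, a log2 change of -3.74 ± 0.75 (adjusted p = 0.0425). Probes of these copies may read both transcripts, so they count as 1 observation at most. The 2 homozygous arrays differed more than 2-fold from each other for both, and the PDF1.2 call was lost without heterozygous replicate 1, at -3.80. The PDF1.2b call was lost without homozygous replicate 2, without either heterozygous array and without any of 5 CesA4 arrays (-4.18 to -2.79).

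Several other genes with a known part in defence passed, in both directions. BSMT1, which methylates salicylate and benzoate, had 1219 and 691 in homozygous plants, against 84.7 and 108 in heterozygous plants, a log2 change of 3.22 ± 0.40. CHAT, which makes the green leaf volatile hexenyl acetate, had 52.3 and 50.8 in homozygous plants, against 12 and 8.26 in heterozygous plants, a log2 change of 2.05 ± 0.44. JRG21, a jasmonate-regulated gene, rose by 2.32 ± 0.32. CHAT and JRG21 were chosen from the called genes after their values were seen. Of 7 genes of the WRKY family of defence transcription factors 1 passed (14.3%, against 5.54% of all probe sets), WRKY53, which was lower. It had 48.9 and 35.7 in homozygous plants, against 190 and 150 in heterozygous plants, a log2 change of -1.94 ± 0.31. WRKY6 stood at 1.23 ± 0.51 and did not pass. The zinc-finger stress regulator STZ had 250 and 176 in homozygous plants, against 687 and 650 in heterozygous plants, a log2 change of -1.66 ± 0.21. GRX480, a glutaredoxin known to repress jasmonate-responsive promoters, had 62.6 and 30.9 in homozygous plants, against 111 and 115 in heterozygous plants, a log2 change of -1.29 ± 0.33. Its call was lost without homozygous replicate 2 or either heterozygous array (-1.32 to -0.82).

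Some genes linked to PYK10, a beta-glucosidase stored in compartments called ER bodies, were chosen for description after their values were seen. Of 4 jacalin-related lectins, a list drawn up at that point, 2 were higher, JAL33 at 1.57 ± 0.27 and JAL34 at 1.42 ± 0.28. JAL33 had 156 and 175 in homozygous plants, against 56.7 and 50.5 in heterozygous plants. NAI2, needed for ER body formation and outside the lists, had 169 and 177 in homozygous plants, against 47 and 55.7 in heterozygous plants, a log2 change of 1.70 ± 0.28. PYK10 itself had 360 and 278 in homozygous plants, against 121 and 97.3 in heterozygous plants, and its change of 1.52 ± 0.41 did not pass (adjusted p = 0.0669). PYK10 did pass in 7 of 20 alternatives, among them the fit to the 4 CesA6 arrays alone and the replicate block, with changes of 1.52 to 1.61. PYK10 is also a root marker; the other root marker measured, EXPA7, had signals of 1.79 and 1.21 in homozygous plants, against 9.05 and 11.8 in heterozygous plants, and stood at -1.53 ± 0.66 (adjusted p = 0.222). Whether root tissue had a part in these values was not tested. The JAL34 call was lost without heterozygous replicate 2, at 1.13, and the calls of JAL33, JAL34 and NAI2 without limma's trend and robust options. In whole rosettes, fewer cells of a type and less RNA per cell cannot be told apart.

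Genes of wall growth and wall modification passed for few members of each list. EXO (EXORDIUM), a brassinosteroid-induced gene of leaf growth, had 43.9 and 31.9 in homozygous plants, against 356 and 532 in heterozygous plants, a log2 change of -3.43 ± 0.70 (adjusted p = 0.0408). Although its groups lay far apart, the EXO call was lost without any 1 of the 4 CesA6 arrays and without 4 of the CesA4 arrays (-3.72 to -3.14). ARL, a brassinosteroid-responsive gene that promotes cell expansion, had 45.6 and 27.7 in homozygous plants, against 154 and 142 in heterozygous plants, a log2 change of -1.96 ± 0.26. For the 19 expansins, which loosen walls in growing cells, the median change was -0.17. Their called share was 5.26%, against 5.54% of all probe sets and 4.2% of named genes, with 1 gene passing. This was the expansin-like gene EXLA1, with 53.4 and 26.1 in homozygous plants, against 122 and 167 in heterozygous plants, a log2 change of -1.84 ± 0.29. EXPA8 had 18.6 and 26.6 in homozygous plants, against 76 and 62.1 in heterozygous plants, and lay just outside the threshold at -1.50 ± 0.46 (adjusted p = 0.0514), passing in 6 of 20 alternatives. Of 10 xyloglucan endotransglucosylase/hydrolases, which cut and rejoin xyloglucan chains, XTH16 alone passed, a share of 10%, and the median was 0.10. XTH16 had 17.6 and 22.9 in homozygous plants, against 60.7 and 91 in heterozygous plants, a log2 change of -1.74 ± 0.30.

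Among 5 genes of pectin modification, 2 pectin methylesterase genes were lower and none was higher, with a median of -0.88. The called share was 40%, against 5.54% of all probe sets. ATPMEPCRB had 55.4 and 58.6 in homozygous plants, against 197 and 190 in heterozygous plants, a log2 change of -1.71 ± 0.23 (adjusted p = 5.57e-06). PMEPCRF had 311 and 320 in homozygous plants, against 587 and 481 in heterozygous plants, a log2 change of -0.75 ± 0.22 that was no longer called without any 1 of the CesA6 arrays (-0.89 to -0.60). Of 4 receptor kinases that monitor the wall 1 passed (25%). This was THE1 (THESEUS1), known for restraining growth in cellulose-deficient seedlings, which was lower. It had 30.8 and 39 in homozygous plants, against 85.1 and 88.1 in heterozygous plants, a log2 change of -1.25 ± 0.27 (adjusted p = 0.00307). Without homozygous replicate 1 the value was -1.09 and the call was lost, as it was without limma's trend and robust options. The peroxidase gene PRX71 (AT5G64120) had 92.1 and 92.7 in homozygous plants, against 193 and 173 in heterozygous plants, a log2 change of -0.96 ± 0.24 that was lost without any 1 of the CesA6 arrays (-1.04 to -0.88). Of 9 tubulin and actin genes 2 beta-tubulins were lower (22.2% called). TUB5 had 62.7 and 60.3 in homozygous plants, against 164 and 192 in heterozygous plants, a log2 change of -1.48 ± 0.21. TUB1 had 48.5 and 46.1 in homozygous plants, against 122 and 114 in heterozygous plants, a log2 change of -1.26 ± 0.24. For both tubulins replicates were nearly alike and the groups well apart.

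Genes for other wall polymers and wall peptides, grouped after values were seen, showed changes in both directions. Of 8 cellulose synthase-like genes 1 was higher and 2 were lower (37.5% called, against 5.54% of all probe sets). As these lists were drawn up with values in view, their shares are description only. CSLA01, of the family that makes mannans, had 471 and 320 in homozygous plants, against 94.3 and 112 in heterozygous plants, a log2 change of 1.88 ± 0.24. CSLC04, which makes the backbone of xyloglucan, had 173 and 127 in homozygous plants, against 313 and 360 in heterozygous plants, a log2 change of -1.16 ± 0.21. ATCSLC08 had 11.8 and 17 in homozygous plants, against 45.1 and 53.5 in heterozygous plants, a log2 change of -1.58 ± 0.42, lost without homozygous replicate 1 or either heterozygous array (-1.70 to -1.37). Of 23 TBL genes, a family that adds acetyl groups to wall polysaccharides, 1 was higher and 3 were lower (17.4% called). TBL37 had 339 and 370 in homozygous plants, against 113 and 104 in heterozygous plants, a log2 change of 1.68 ± 0.20. TBL45 had 35.2 and 38.1 in homozygous plants, against 145 and 115 in heterozygous plants, a log2 change of -1.73 ± 0.27. AT2G31110 and TBL25 stood at -1.71 ± 0.38 and -0.90 ± 0.22. Of 11 genes for RALF peptides, ligands of wall-associated receptor kinases, 3 passed (27.3%), and 0 did without limma's trend and robust options. RALFL32 was higher at 0.97 ± 0.25 and RALFL22 and RALFL33 were lower at -0.90 ± 0.22 and -0.93 ± 0.21. The RALFL33 call was lost without heterozygous replicate 1, at -0.87. The calls of TBL25 (-0.98 to -0.64), RALFL22 (-0.93 to -0.68) and RALFL32 (0.79 to 1.08) were each lost without homozygous replicate 2 or either heterozygous array, and that of AT2G31110 without homozygous replicate 2 or heterozygous replicate 1 (-1.59 to -1.27).

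Few genes of cellulose, xylan or lignin synthesis could be read. COB, which orients cellulose in expanding cells, was the only measured gene of the primary wall cellulose list. It had 710 and 687 in homozygous plants, against 944 and 912 in heterozygous plants, a change of -0.41 ± 0.17 that did not pass (adjusted p = 0.187). None of the 3 measured secondary wall genes passed; IRX15-L, of xylan synthesis, had 131 and 128 in homozygous plants, against 124 and 107 in heterozygous plants. Of 4 lignin genes 1 passed (25%, against 5.54% of all probe sets), CCR2, a cinnamoyl-CoA reductase known for induction by pathogens. It was higher, with 84.8 and 81.4 in homozygous plants, against 25.3 and 35.7 in heterozygous plants, a log2 change of 1.37 ± 0.34 (adjusted p = 0.0103). That call was lost without either homozygous array or heterozygous replicate 1 (1.15 to 1.40). HCT, of the same pathway, stood at 0.44 ± 0.17.

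In the plant surface pathway, a repressor and an enzyme of wax synthesis moved in opposite directions. Of the 6 genes on the wax and cutin list 1 was lower and 1 higher (33.3% called, against 5.54% of all probe sets). DEWAX (AT5G61590), an AP2-type factor that represses wax genes, had 52.3 and 34.2 in homozygous plants, against 715 and 788 in heterozygous plants, a log2 change of -4.05 ± 0.22 (adjusted p = 7.48e-14). WSD1, which joins fatty acids and alcohols into wax esters, had 65.9 and 63.1 in homozygous plants, against 1.29 and 25.5 in heterozygous plants, a log2 change of 2.58 ± 0.59 (adjusted p = 0.00553). WSD1 signals of the heterozygous arrays disagreed, 1 of them lying below the pseudocount, and its call was lost without either homozygous array or heterozygous replicate 1 (1.24 to 2.61).

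**Figure D3:**
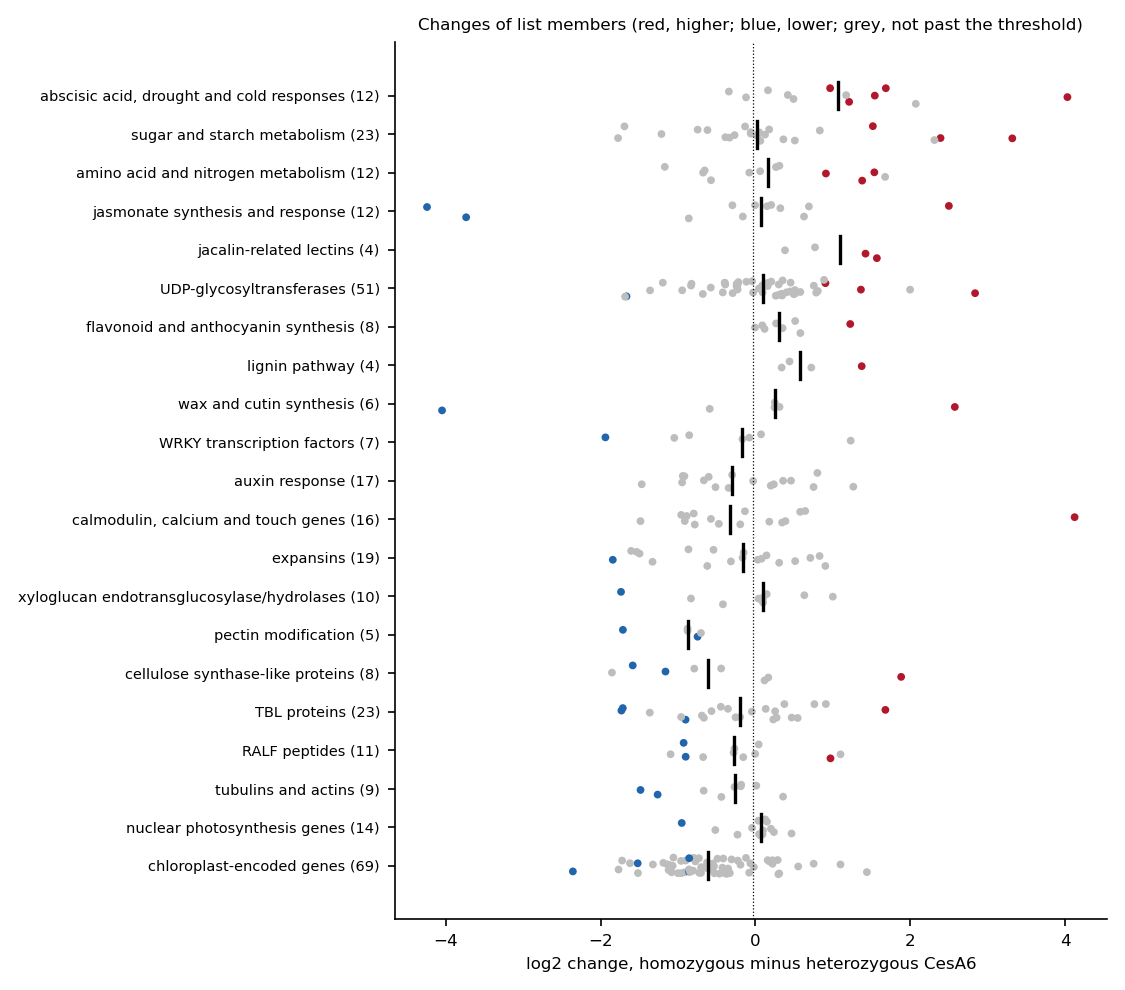
Log2 changes of the members of 21 gene lists, homozygous minus heterozygous CesA6 plants, with the number measured in brackets. Red and blue points passed the test as higher and lower, black bars mark list medians and the dotted line the median of all probe sets (-0.03); the abscisic acid list has its median at 1.07 and the chloroplast-encoded genes have theirs at -0.61.

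Of 69 measured transcripts encoded in the chloroplast genome 4 were lower in homozygous plants and none higher. The called share was 5.8%, near the 5.54% of all probe sets, against 4.2% of named genes. The median log2 change was -0.61, and 58 of the 69 changes (84.1%) were negative, against 52.1% of all probe sets. The groups did not overlap in the lower direction for 24 genes (34.8%) and in the higher direction for 4 (5.8%), against 24.8% and 21.5% of all probe sets. psbK, a small subunit of photosystem II, had 515 and 284 in homozygous plants, against 1967 and 1981 in heterozygous plants, a log2 change of -2.36 ± 0.27 (adjusted p = 8.13e-06). rpl33, a ribosomal protein gene, had 518 and 530 in homozygous plants, against 1289 and 1765 in heterozygous plants, a log2 change of -1.52 ± 0.26. psbA, the reaction centre protein D1, had 947 and 743 in homozygous plants, against 1132 and 2061 in heterozygous plants, a log2 change of -0.86 ± 0.23. psbL, another photosystem II subunit, had 149 and 161 in homozygous plants, against 247 and 323 in heterozygous plants, a log2 change of -0.86 ± 0.24. Only psbK and rpl33 kept their calls when each array in turn was left out. The psbA call was lost without replicate 2 of the homozygous CesA6, heterozygous CesA6 or homozygous CesA4 plants (-0.86 to -0.43), and the psbL call without any 1 of the CesA6 arrays (-1.05 to -0.66).

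The chloroplast transcripts varied as much between arrays of a group as between the groups. Relative to the mean of the heterozygous arrays, their median log2 level was -0.37 and -0.93 on the homozygous arrays and -0.47 and 0.47 on the heterozygous arrays. Their summed signal was 70634 and 52554 on the homozygous arrays, against 73064 and 110436 on the heterozygous arrays. Heterozygous replicate 1 was close to homozygous replicate 1, and the median change was -0.15 without heterozygous replicate 2 and -1.12 without heterozygous replicate 1, with 2 and 15 genes called. Of 14 nuclear photosynthesis genes 1 was lower and none higher (7.14% called), with a median of 0.08. The lower one was PORB, a light-dependent enzyme of chlorophyll synthesis, with 415 and 491 in homozygous plants, against 746 and 1027 in heterozygous plants, a log2 change of -0.95 ± 0.21, lost without homozygous replicate 1 or heterozygous replicate 2 (-0.83 to -0.72). RCA, the activase of the carbon-fixing enzyme and the only rosette leaf marker measured, had 11362 and 11012 in homozygous plants, against 10325 and 10660 in heterozygous plants. The RCA change of 0.09 ± 0.13 turned to -0.04 with quantile normalization. Among 16 mitochondrial transcripts 1 was lower (6.25%), ccb382 at -1.45 ± 0.38, and the median was -0.02. Its call was lost without homozygous replicate 2 or heterozygous replicate 2 (-1.02 to -0.97).

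**Figure D4:**
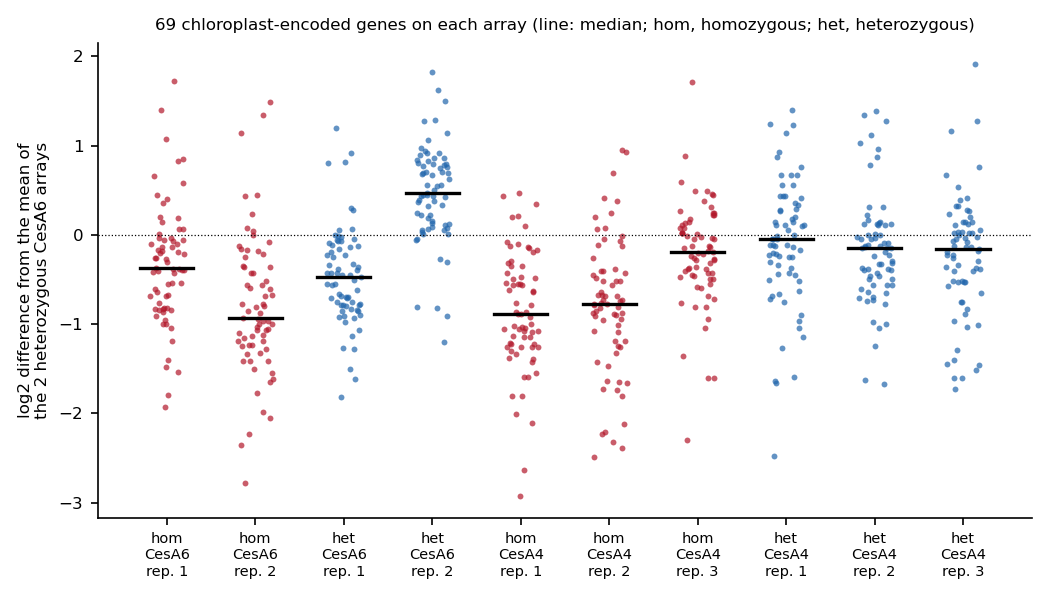
Log2 differences of the 69 chloroplast-encoded genes from their mean over the 2 heterozygous CesA6 arrays, per array, with bars at the medians. The homozygous CesA6 arrays have medians of -0.37 and -0.93 and the heterozygous ones of -0.47 and 0.47, so heterozygous replicate 1 lies among the homozygous arrays.

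Enzymes that conjugate or oxidise small molecules form large families, of which a few members passed. Of 51 UDP-glycosyltransferases 3 were higher and 1 lower, a called share of 7.84%, not far from the 5.54% of all probe sets. UGT76E12 had 182 and 98.4 in homozygous plants, against 13.7 and 18.6 in heterozygous plants, a log2 change of 2.84 ± 0.46. Its neighbour by name, UGT76E11, had 217 and 206 in homozygous plants, against 83.7 and 77.1 in heterozygous plants, a log2 change of 1.36 ± 0.26. UGT72E1, which glucosylates lignin precursors, had 79.8 and 53.6 in homozygous plants, against 255 and 180 in heterozygous plants, a log2 change of -1.66 ± 0.26. The third higher gene, UGT84A3, stood at 0.90 ± 0.19 and lost its call without homozygous replicate 1 or heterozygous replicate 2 (0.82 to 0.83). Of 28 genes on the cytochrome P450 list 3 passed (10.7%). The list also holds some cyclophilin genes, such as SQN and CYP59, that the name pattern let in. CYP71B26 was higher, with 991 and 1128 in homozygous plants, against 457 and 459 in heterozygous plants (adjusted p = 4.04e-05). CYP71B37 was also higher, at 2.36 ± 0.64, and CYP71B29 lower, at -2.45 ± 0.67. The CYP71B37 call was lost without either homozygous array or heterozygous replicate 1 (1.67 to 2.45), and the CYP71B29 call, from homozygous signals of 1.06 and 3.15, without any 1 of the CesA6 arrays (-2.74 to -2.16). GSTU27 was the only one of 14 glutathione transferases to pass (7.14%), with 131 and 102 in homozygous plants, against 300 and 370 in heterozygous plants, a log2 change of -1.51 ± 0.24.

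Of the 7 genes on the metal homeostasis list 1 was higher and 1 lower (28.6% called, against 5.54% of all probe sets). The name pattern also let in FRO1, a gene of mitochondrial complex I. SUFE2, of iron-sulphur cluster assembly, had 6.69 and 3.72 in homozygous plants, against 115 and 90 in heterozygous plants, a log2 change of -3.67 ± 0.60 (adjusted p = 0.000106). MT1C, a metallothionein gene, had 1951 and 1360 in homozygous plants, against 942 and 835 in heterozygous plants, a log2 change of 0.87 ± 0.21, lost without homozygous replicate 1 or heterozygous replicate 2 (0.61 to 0.79). CCS, the chaperone that loads copper onto superoxide dismutase, had 489 and 548 in homozygous plants, against 250 and 138 in heterozygous plants, a log2 change of 1.46 ± 0.21. TET8, a tetraspanin of plant extracellular vesicles, had 329 and 275 in homozygous plants, against 798 and 1028 in heterozygous plants, a log2 change of -1.58 ± 0.21. It was the only one of 15 tetraspanins to pass (6.67%). Among lower genes listed by locus, AT2G41090 had 1220 and 740 in homozygous plants, against 5511 and 5270 in heterozygous plants, a log2 change of -2.50 ± 0.19. AT3G22240 had 2090 and 1009 in homozygous plants, against 6679 and 7040 in heterozygous plants, a log2 change of -2.24 ± 0.28. In both the heterozygous replicates were closer to each other than the homozygous ones. AT3G04210, AT4G27280 and AT5G03350 stood at -3.54 ± 0.40, -3.16 ± 0.21 and -2.32 ± 0.21. AILP1, an aluminium-induced protein gene, stood at -1.08 ± 0.16.

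For several pathways no listed gene passed in limma's test. This held for the 17 auxin response genes, where IAA29 came nearest with 7 and 10.1 in homozygous plants, against 34.8 and 24 in heterozygous plants (-1.47 ± 0.66, adjusted p = 0.254). It also held for the 26 genes on the glucosinolate and camalexin list, most of them beta-glucosidases of the BGLU family. The same was so for the 9 cell cycle and histone genes and the 4 genes on the heat shock list. The last list includes BRK1, an actin regulator that the name pattern let in. The numbers at an unadjusted p under 0.05 were 1 for auxin, 3 for glucosinolates, 2 for the cell cycle and 0 for heat shock, and eBayes without trend and robust called 0 in each list too. Under other alternatives the glucosinolate list gained PYK10 (7 of 20) and BGLU44, which was lower with quantile normalization at -0.63, while the other 3 lists gained no call under any of the 20. Of 7 bHLH transcription factor genes, bHLH94 (AT1G22490) came nearest, with 45.8 and 82.8 in homozygous plants, against 20.1 and 27.8 in heterozygous plants (1.27 ± 0.39, adjusted p = 0.0508), and it passed in 6 of 20 alternatives. Of 6 cytokinin response genes, the response regulator RR16 stood at -1.17 ± 0.38 (adjusted p = 0.067) and passed in 3 of 20. Among 8 genes on the flavonoid list the single called one, CHI (AT2G43570), is a chitinase that the symbol pattern let in, with 757 and 582 in homozygous plants, against 451 and 176 in heterozygous plants. Its change of 1.23 ± 0.30 was lost without homozygous replicate 1 or heterozygous replicate 2 (0.56 to 1.04). Markers of guard cells and trichomes were each represented by 1 gene, neither of which passed, and those of flower, seed, xylem and phloem by none.

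The change in the CesA6 line was then tested against the change in the CesA4 line, each against its own heterozygous plants. Of the 562 probe sets higher in the CesA6 line 425 also passed as higher in the CesA4 line, which is 75.6% of the CesA6 calls and 34.6% of the 1228 CesA4 calls. Of the 697 lower ones 408 also passed as lower there, 58.5% of the CesA6 calls and 40.5% of the 1007 CesA4 calls. In the CesA4 line 9.83% of all probe sets passed, 5.4% as higher and 4.43% as lower. The difference between the changes passed for 87 probe sets (0.382%), 38 (0.167%) of them positive and 49 (0.215%) negative. A positive difference means a CesA6 change above the CesA4 change and not a higher level in the CesA6 line. Of the 38 positive ones, 19 were lower in homozygous plants of both lines by sign, and 19 had opposite signs. The difference passed for 10 of the 562 higher and 40 of the 697 lower calls of the CesA6 line. The count of 87 fell to 19 to 21 when homozygous CesA6 replicate 2 or either heterozygous CesA6 array was left out, and to 35 to 46 without homozygous CesA4 replicate 1 or heterozygous CesA4 replicate 1 or 3.

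For some genes the lines differed mainly in their homozygous plants. DEWAX changed by -4.05 in the CesA6 line and by -1.67 in the CesA4 line, a difference of -2.38 ± 0.28 (adjusted p = 3.21e-05). Between the lines, homozygous plants differed by -2.77 log2 units (CesA6 minus CesA4) and heterozygous plants by -0.40. AT3G10020 had the same layout, with a difference in change of -1.70 ± 0.29, of -2.13 between homozygous and of -0.43 between heterozygous plants. ORA47, a regulator of jasmonate synthesis, had 48.5 and 31.4 in homozygous CesA6 plants, against 77.4 and 69.8 in heterozygous CesA6 plants. Its CesA6 change of -0.86 did not pass, the CesA4 change was 1.31, and the difference of -2.17 ± 0.38 did pass (adjusted p = 0.00553). Between the lines its homozygous plants were -1.40 and its heterozygous plants 0.76 apart, so neither group alone carried the difference. ATPMEPCRB fell less in the CesA6 line, by 1.38 ± 0.30, with homozygous plants 0.90 and heterozygous plants -0.48 apart.

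For others the lines differed mainly in their heterozygous plants. Distances between lines are CesA6 minus CesA4 on the log2 scale. psbK differed in change by -1.92 ± 0.35 (adjusted p = 0.0183), with homozygous plants of the lines 0.02 apart and heterozygous plants 1.95 apart. AR781 changed by -2.10 in the CesA6 line and -0.33 in the CesA4 line, and heterozygous plants were 1.41 apart. STZ differed by -1.27 ± 0.28, JAL23 by -1.57 ± 0.32 and IRX15-L by -1.56 ± 0.30, with heterozygous plants 0.89, 1.26 and 1.24 higher in the CesA6 line and homozygous plants -0.38, -0.31 and -0.32 apart. In the other direction EXLA1 fell less in the CesA6 line, with a difference of 2.13 ± 0.37 (adjusted p = 0.00683), homozygous plants -0.42 apart and heterozygous plants -2.54 apart. AT2G47440 and AT5G44020 showed this layout too, with differences of 1.53 ± 0.28 and 1.63 ± 0.34. Over all called differences, the heterozygous levels of the lines were farther apart than the homozygous levels for 34 of the 38 positive and 27 of the 49 negative ones.

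**Figure D5:**
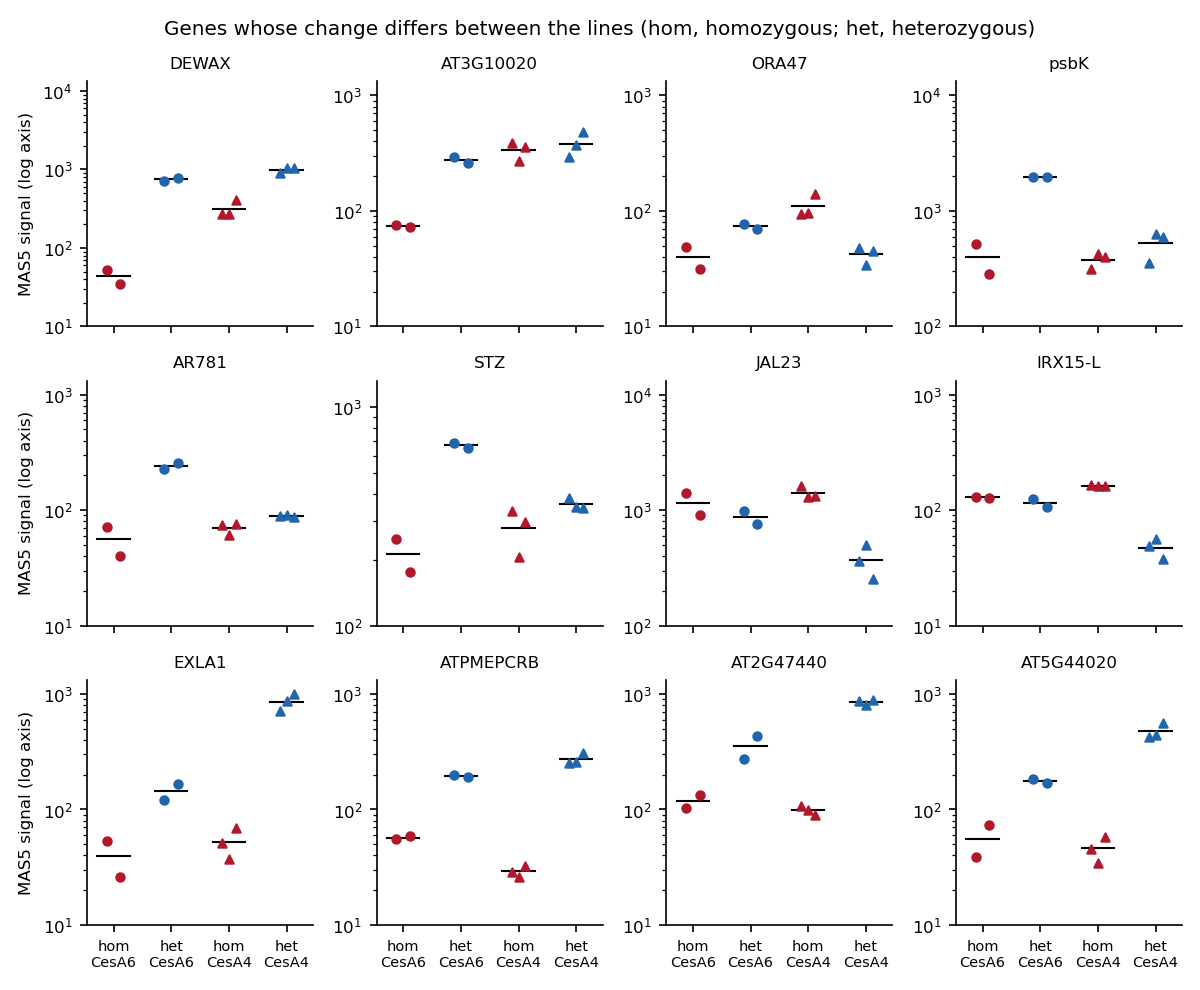
MAS5 signals on log axes for 12 genes whose change differed between the lines, with arrays of homozygous and heterozygous CesA6 plants (circles) and of homozygous and heterozygous CesA4 plants (triangles). DEWAX and AT3G10020 are lowest in homozygous CesA6 plants, whereas psbK, AR781 and STZ stand out in heterozygous CesA6 plants.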

How the data were processed

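The deposited values are MAS5 intensities on a linear scale, made by the authors with GCOS software per the submitters' processing notes, for 22810 probe sets, of which 64 controls were left out. Per the labels' protocols, a Qiagen kit was used for RNA and biotin for one-cycle labelling. Every deposited array has a 2% trimmed mean of 100.01, with medians between 31.98 and 37.64. Here 3.2 was added, log2 was taken, and limma 3.58.1 (R 4.3.3; eBayes with trend and robust) was fitted with a mean for each of 4 groups over 10 arrays, giving 6 residual degrees of freedom. A fold change is on the log2(signal + 3.2) scale, which understates changes of dim probe sets. Pooling the groups assumes a common spread, and 2 arrays a side limit the precision; an exact permutation test of 2 against 2 cannot go below p = 0.333. P-values were adjusted by Benjamini-Hochberg over 22746 probe sets, threshold 0.05. Genes were named from GEO's platform annotation, with 13436 probe sets matched to current names in the TAIR10.1 reference table and 77 not. A gene with several probe sets is represented by the brightest. In a simulation, 67, 67 and 66 of 22746 probe sets were given true changes of 0.5, 1 and 2 log2 units. These were recovered in 0%, 7.46% and 47% of cases for the CesA6 comparison. For the difference between lines the shares were 0%, 0% and 25.8%. False calls numbered 1 for the CesA6 comparison and 0 for the difference. Most simulated 2-fold changes were thus missed, and a gene that did not pass may still have changed 2-fold. With so few changed probe sets the Benjamini-Hochberg adjustment is stricter than in the data, where 1259 probe sets passed. The recovered shares therefore do not measure how many real changes were found. No detection calls or coordinates were used.

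The comparison, the 58 gene lists and the rule for named genes (per direction, the 15 largest changes, the 10 largest gaps between groups and the 10 brightest at least 2-fold; up to 4 called members of each list; the 8 largest differences between lines) were chosen with earlier results of these data known. Of the lists, 14 had no measured member, among them those for AP2/ERF and MYB factors, aquaporins and most cell type markers, because the reference gives no product names. Members were matched by name patterns, which also let in some genes of other function, so list counts and medians can include strays. Such patterns can also miss genes of a family that are listed by locus alone. Another 7 lists, the genes ARL, STZ, CCS, MGL, TMT1 and AKINBETA1, and the other genes described as picked after their values were seen, fall outside that rule and were chosen with values in view. Alternatives were other pseudocounts, filters and normalizations, eBayes without trend and robust, a replicate block, a fit to the CesA6 arrays alone and leaving out each array. Same-numbered arrays deviated from their group means with correlations of 0.02 to 0.03 over all probe sets, so replicate numbers were not treated as pairs.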

Additional observations from a re-analysis of the deposited data

Results flagged for a closer look

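For 13 genes named in the text, the interaction term of limma's fit found that the change differed between the CesA6 and the CesA4 line. The values below are the CesA6 change minus the CesA4 change on the log2 scale, with SE and adjusted p. DEWAX (AT5G61590) stood at -2.38 ± 0.28 (adjusted p = 3.21e-05), AT3G10020 at -1.70 ± 0.29 (adjusted p = 0.00325), ORA47 at -2.17 ± 0.38 (adjusted p = 0.00553), AR781 at -1.77 ± 0.33 (adjusted p = 0.00893) and IRX15-L at -1.56 ± 0.30 (adjusted p = 0.0139). Nearer the threshold were psbK at -1.92 ± 0.35 (adjusted p = 0.0183), JAL23 at -1.57 ± 0.32 (adjusted p = 0.0303) and STZ at -1.27 ± 0.28 (adjusted p = 0.0319). Positive values, meaning a CesA6 change above the CesA4 change, were seen for the remaining genes. These were EXLA1 at 2.13 ± 0.37 (adjusted p = 0.00683), AT2G47440 at 1.53 ± 0.28 (adjusted p = 0.00716), AT5G44020 at 1.63 ± 0.34 (adjusted p = 0.0216), ATPMEPCRB at 1.38 ± 0.30 (adjusted p = 0.0303) and AT1G77640 at 3.23 ± 0.72 (adjusted p = 0.0401). The AT1G77640 value came from CesA6 signals of 18.2 and 20.7 in homozygous plants, against 36.5 and 20.9 in heterozygous plants, groups whose nearest arrays were 0.01 log2 units apart, and its CesA6 change of -0.45 did not pass. Each of the 13 calls was lost with eBayes without trend and robust, and each except DEWAX was lost when at least 1 array was left out.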

How the results depend on the processing

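The number of calls in the CesA6 comparison was 1168 to 1459 over the alternatives that kept all CesA6 arrays and limma's trend and robust options, and no call changed sign under any alternative. It fell to 433 (199 higher, 234 lower) with eBayes without trend and robust. COR15B, COR47, DI21, HIS1-3, GTR1, JAL33, NAI2, UGT76E11, EXLA1, CSLC04, GSTU27 and rpl33 lost their calls under this setting alone. Lists left with no call under it included expansins, wall-sensing receptor kinases, RALF peptides, jacalin-related lectins, glutathione transferases and nuclear photosynthesis genes. Of the chloroplast-encoded genes 1 stayed called, and so did 2 tubulins and 2 TBL genes. With each array left out in turn the total ran from 683 to 1403, the higher calls from 318 to 611 and the lower calls from 363 to 792. The number of called differences between the lines ran from 19 to 125 when an array was left out. It was 166 with the replicate block. Without the trend and robust options limma called 0 differences, although 1819 had p under 0.05 before adjustment (2259 with these options). The replicate block gave 1459 calls in the CesA6 comparison, and the numbers do not pair the samples. Of 92 called genes named in the text 50 kept their call in all 20 alternatives, 42 lost it in at least 1, and none changed sign; the 13 named differences all lost their call in at least 1. The RCA change, which was not called, turned to -0.04 with quantile normalization. The causes of these shifts were not tested. Dim probe sets, of which 15.8% to 17.3% per array lay below the pseudocount, limit what could be called, and so do 2 arrays a side.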
